A study of Mus musculus with 12 samples.

Results

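The genes described here encode ligands and receptors of the VEGF and angiopoietin systems: 3 VEGF ligands (Vegfa, Vegfb, Vegfc), 3 VEGF receptors (Kdr, Flt1, Flt4), 2 neuropilin co-receptors (Nrp1, Nrp2) and 2 receptors of the angiopoietin system (Tek, Tie1). They were chosen by gene symbol, as the probe sets with exactly 1 annotated symbol on that list. All 10 were measured, with 1 probe set each, among 18784 named genes. The 12 Affymetrix mouse gene arrays fell into 4 groups of 3: neural progenitor cells (NPC) with an shRNA against Jarid1b, NPC with a scrambled shRNA, embryonic stem cells (ESC) with the Jarid1b shRNA and ESC with the scrambled shRNA. These are called knockdown and control cells of each state. Jarid1b is now named Kdm5b and encodes a demethylase of lysine 4 of histone H3.

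The ESC were of the feeder-independent mouse line E14TG2a.4, and the labels derive the NPC by a published differentiation protocol. In all 4 groups, controls included, the shRNA came from a PLKO.1 lentivirus to which ESC were exposed for 16 h, and puromycin selection began 48 h after transduction. The labels name 1 Jarid1b construct. Whether the 3 arrays of a group stem from separate cultures is not stated, and the p-values therefore cover array-to-array spread that could be purely technical.

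VEGF ligands are secreted proteins that bind receptor tyrosine kinases on endothelial cells, and neuropilins hold some of these ligands at the receptor. Angiopoietins bind the receptor kinase encoded by Tek, which pairs with the related protein encoded by Tie1. In the developing nervous system, Vegfa from progenitors attracts vessels, while the neuropilins also bind semaphorins and guide axons, so not all members mark endothelium.

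Values are deposited log2 levels after RMA, a method that corrects background, quantile-normalizes arrays and summarizes probes. Array medians lay at 7.70 to 7.79 and lower quartiles at 5.84 to 6.11. No detection calls were used, so a level near the lower quartile cannot be told from absence, and levels of different genes are not compared because each depends on its own probes. Arrays of 1 group correlated at 0.992 to 0.997 across genes. Kdm5b itself fell in knockdown NPC by 0.76 ± 0.11 (SE) and in knockdown ESC by 1.73 ± 0.11 (SE) on the log2 scale. The labelled states were checked against marker lists. Of 10 neural progenitor markers, 9 rose and 1 (Sox2, also an ESC gene) fell in NPC against ESC, and 10 of 10 pluripotency markers fell, in knockdown and in control cells alike. Below, rose and fell are used where limma's adjusted p, by Benjamini-Hochberg over 18784 genes, was under 0.05. Each change is a log2 difference between 2 group means, knockdown minus control or NPC minus ESC, with limma's standard error.

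The promoters of 6 members are shown because these genes carry the results that follow: Vegfa with the call in ESC, Kdr, Flt1, Tie1 and Nrp1 with lower levels in knockdown NPC, of which Tie1 and Nrp1 passed the test, and Tek with the largest fall between states among the members. Each is 250 bases before to 50 after a RefSeq transcription start (GRCm38.p6), written 5′ to 3′ on the gene's strand. Capitals mark the GC box GGGCGG and the ETS cores CAGGAA and CCGGAA on either strand. GC boxes are read by Sp-family factors and ETS cores by factors that include regulators of endothelial genes.
Vegfa, chr17:46032328-46032627, minus strand: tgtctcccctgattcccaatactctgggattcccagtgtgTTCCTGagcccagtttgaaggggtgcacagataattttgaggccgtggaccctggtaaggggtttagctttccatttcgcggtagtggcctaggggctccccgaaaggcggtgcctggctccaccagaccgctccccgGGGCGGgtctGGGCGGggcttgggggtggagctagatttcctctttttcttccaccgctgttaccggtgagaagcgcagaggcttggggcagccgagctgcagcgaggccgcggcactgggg
Kdr, chr5:75978406-75978705, minus strand: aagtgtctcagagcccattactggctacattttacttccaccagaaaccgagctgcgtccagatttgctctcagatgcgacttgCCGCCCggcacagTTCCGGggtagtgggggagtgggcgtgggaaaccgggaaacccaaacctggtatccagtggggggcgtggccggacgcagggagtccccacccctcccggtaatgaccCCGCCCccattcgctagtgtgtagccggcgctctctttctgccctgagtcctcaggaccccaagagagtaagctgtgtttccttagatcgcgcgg
Flt1, chr5:147725962-147726261, minus strand: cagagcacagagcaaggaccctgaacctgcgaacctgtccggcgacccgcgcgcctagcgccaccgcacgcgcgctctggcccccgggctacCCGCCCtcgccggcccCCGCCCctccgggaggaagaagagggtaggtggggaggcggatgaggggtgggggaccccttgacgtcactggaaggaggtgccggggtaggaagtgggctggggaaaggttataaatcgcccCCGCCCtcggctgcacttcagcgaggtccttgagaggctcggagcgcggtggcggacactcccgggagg
Tie1, chr4:118489800-118490099, minus strand: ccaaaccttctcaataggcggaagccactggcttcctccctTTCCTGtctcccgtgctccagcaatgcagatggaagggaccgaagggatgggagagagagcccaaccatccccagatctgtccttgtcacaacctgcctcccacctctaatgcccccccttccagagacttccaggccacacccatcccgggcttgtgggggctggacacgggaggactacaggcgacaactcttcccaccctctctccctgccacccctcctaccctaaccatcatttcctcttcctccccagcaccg
Nrp1, chr8:128358823-128359122, plus strand: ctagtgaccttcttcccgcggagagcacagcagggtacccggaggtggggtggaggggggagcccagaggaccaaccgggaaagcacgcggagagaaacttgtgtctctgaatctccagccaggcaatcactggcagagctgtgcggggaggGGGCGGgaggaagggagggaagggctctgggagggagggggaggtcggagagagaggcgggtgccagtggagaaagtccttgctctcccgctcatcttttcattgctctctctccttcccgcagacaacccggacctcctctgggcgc
Tek, chr4:94739039-94739338, plus strand: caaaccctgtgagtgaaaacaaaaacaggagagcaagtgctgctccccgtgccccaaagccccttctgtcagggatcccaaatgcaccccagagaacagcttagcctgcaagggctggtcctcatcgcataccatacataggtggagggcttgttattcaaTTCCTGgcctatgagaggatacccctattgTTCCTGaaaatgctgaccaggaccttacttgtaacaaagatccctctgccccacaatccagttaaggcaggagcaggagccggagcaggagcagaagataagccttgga
RefSeq listed 11 promoters for the 10 members, of which Vegfa had 2, and its first is shown. Those of Tie1 and Tek held no GC box and 7 and 3 CpG, while the other 9 promoters, of 8 genes, held 1 to 5 GC boxes and 10 to 37 CpG. Over 32851 mouse promoters of this length, 35.7% held the GC box and 41.4% held at least 1 of the ETS cores, which were counted together without regard to overlap with other motifs. The quartiles of the CpG count over these promoters were 3, 7 and 20. CAGGAA or CCGGAA occurred 2 times in the Tek promoter and 1 time each in those of Tie1, Kdr, Vegfc, Nrp2 and the first of Vegfa. Flt1, Flt4, Nrp1, Vegfb and the other Vegfa promoter had neither string. Other sequences that hold GGAA, as those of Flt1 and Nrp1 do, were not counted. A match describes letters and not binding.

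**Figure D1:**
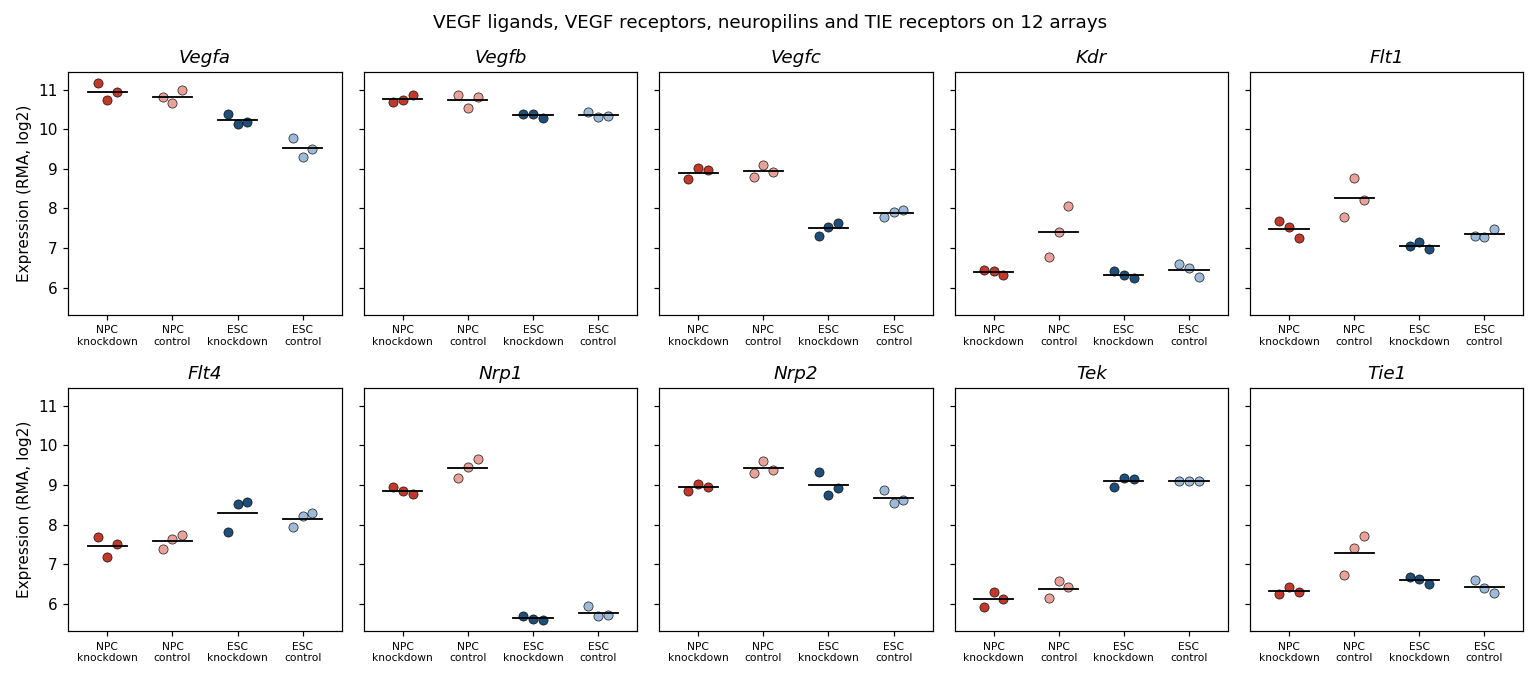
Deposited log2 level (vertical axis) of each of the 10 members in each array, in knockdown and control NPC and knockdown and control ESC, with 3 arrays (points) a group and the group mean as a bar. Control NPC arrays stand above the other arrays in Kdr and Tie1, with means of 7.42 and 7.28, and are more spread there than the other groups.

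Among the ligands, Vegfa, the main vessel growth factor, rose in knockdown ESC and did not pass the test in NPC. Vegfa (Entrez gene 22339) had levels of 11.17, 10.73 and 10.94 in knockdown NPC and 10.81, 10.66 and 10.98 in control NPC. In knockdown ESC its levels were 10.39, 10.14 and 10.18, against 9.78, 9.31 and 9.50 in control ESC. The NPC groups overlapped, the ESC groups did not, and all NPC arrays stood above all ESC arrays. Its change was 0.13 ± 0.14 (SE, adjusted p = 0.925) in NPC and 0.71 ± 0.14 (SE, adjusted p = 0.0142) in ESC, where it was 1.64-fold higher. The rise in ESC missed the threshold when any of 3 arrays was left out: knockdown ESC replicate 1 (adjusted p = 0.0507), knockdown ESC replicate 3 (0.0512) or control ESC replicate 3 (0.0713).

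Vegfc, a ligand of lymphatic vessel growth, was lower in all knockdown ESC arrays than in all control ESC arrays without passing the test. Its levels were 7.32, 7.53 and 7.63 in knockdown ESC and 7.77, 7.92 and 7.97 in control ESC, a change of -0.39 ± 0.11 (SE, adjusted p = 0.0678). Without control ESC replicate 1 the adjusted p was 0.0487. In NPC, Vegfc averaged 8.91 ± 0.15 in knockdown and 8.94 ± 0.15 in control cells (SD, n = 3 each), which overlapped. Vegfb, which binds Flt1 and has little vessel-forming activity of its own, did not pass in either state. It averaged 10.77 ± 0.092 in knockdown NPC, 10.73 ± 0.17 in control NPC, 10.35 ± 0.056 in knockdown ESC and 10.36 ± 0.066 in control ESC (SD, n = 3 each).

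Among the receptors, the levels of Kdr, Flt1 and Tie1 were lower in every knockdown NPC array than in every control NPC array, and so were those of the 2 neuropilins. Kdr (Entrez gene 16542), the main signalling receptor for Vegfa, had levels of 6.45, 6.44 and 6.31 in knockdown NPC and 6.78, 7.40 and 8.07 in control NPC. Control NPC stood apart from the other 3 groups, whose arrays overlapped between 6.25 and 6.60. The change in NPC was -1.02 ± 0.23 (SE, adjusted p = 0.0563), which missed the threshold. Its size is rough, because the knockdown NPC levels lay little above the lower quartiles of the arrays. In ESC the change was -0.13 ± 0.23 (SE, adjusted p = 0.812).

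Tie1 (Entrez gene 21846), an orphan receptor that pairs with Tek, fell in knockdown NPC. Its levels were 6.26, 6.43 and 6.30 in knockdown NPC and 6.72, 7.40 and 7.73 in control NPC. The log2 change was -0.95 ± 0.19 (SE) at an adjusted p of 0.0341, which is 1.94-fold lower. That fold is rough, because the knockdown NPC levels lay little above the lower quartiles of the arrays. As with Kdr, the control NPC arrays were above all others, and the remaining groups lay between 6.26 and 6.68. In ESC Tie1 averaged 6.61 ± 0.088 in knockdown and 6.43 ± 0.17 in control cells (SD, n = 3 each), which overlapped.

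Flt1, a high-affinity receptor that limits Vegfa signalling, had levels of 7.68, 7.54 and 7.25 in knockdown NPC and 7.78, 8.76 and 8.22 in control NPC. The groups did not overlap, but the gap was small between knockdown replicate 1 and control replicate 1, and the change of -0.76 ± 0.19 (SE) had an adjusted p of 0.0926. In ESC its levels were 7.06, 7.16 and 6.97 in knockdown and 7.31, 7.27 and 7.48 in control cells, also without overlap, with a change of -0.29 ± 0.19 (SE, adjusted p = 0.452). Flt4, the main receptor for Vegfc, overlapped between knockdown and control cells in both states, with changes of -0.14 ± 0.20 in NPC (adjusted p = 0.948) and 0.15 ± 0.20 in ESC (adjusted p = 0.739). Tek overlapped too, at -0.26 ± 0.12 in NPC (adjusted p = 0.533) and -0.010 ± 0.12 in ESC (adjusted p = 0.978).

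Nrp1 (Entrez gene 18186), a co-receptor for Vegfa and class 3 semaphorins, fell in knockdown NPC. Its levels were 8.94, 8.85 and 8.78 in knockdown NPC and 9.17, 9.46 and 9.66 in control NPC, without overlap. The change was -0.57 ± 0.12 (SE), or 1.49-fold lower, at an adjusted p of 0.0405. In ESC, where all arrays lay between 5.60 and 5.94, it changed by -0.14 ± 0.12 (SE, adjusted p = 0.588). Nrp2, which binds Vegfc and semaphorins, had levels of 8.86, 9.04 and 8.96 in knockdown NPC and 9.29, 9.60 and 9.39 in control NPC, a change of -0.47 ± 0.14 (SE, adjusted p = 0.184). In ESC its 2 groups overlapped, with a change of the other sign, 0.33 ± 0.14 (SE, adjusted p = 0.231).

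By count, 0 of the 10 members rose and 2 fell in knockdown NPC, where 0.820% of all genes rose and 0.213% fell. A further count, of members with groups that did not overlap, gave 5 lower and 0 higher in NPC, against 5.91% lower and 8.30% higher over all genes. In knockdown ESC 1 member rose and 0 fell, where 1.84% of all genes rose and 3.37% fell, and without overlap 2 members were lower and 1 was higher, against 13.6% lower and 10.6% higher over all genes. The median change of the members was -0.37 in NPC and -0.010 in ESC, against 0.0037 and 0.017 over all genes. The limma count at an unadjusted p under 0.05 was 5 members in NPC and 3 in ESC, against 9.52% of all genes in NPC and 19.2% in ESC.

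**Figure D2:**
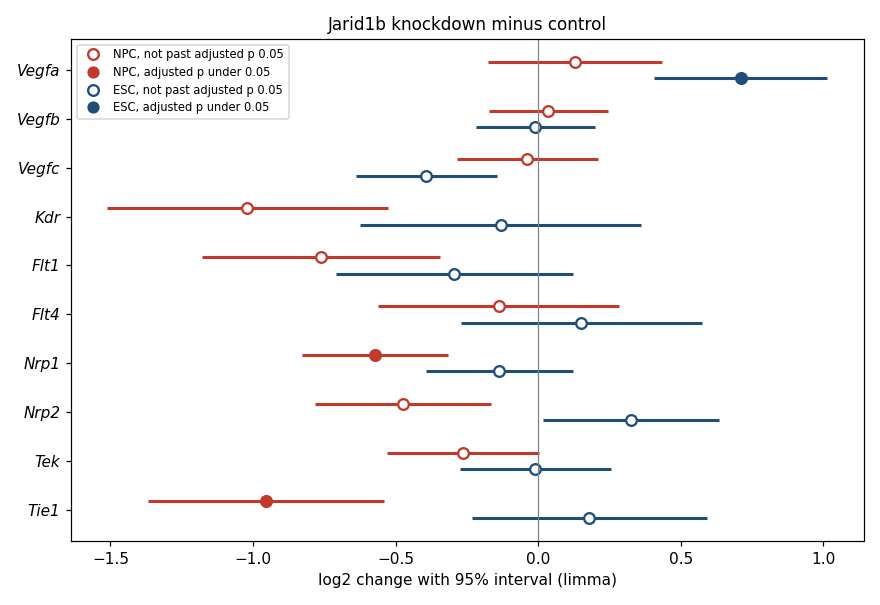
Change with knockdown (log2, horizontal axis) of each member in NPC and in ESC, with limma's 95% interval as a line and filled points where the adjusted p was under 0.05. Tie1 (-0.95) and Nrp1 (-0.57) are called in NPC and Vegfa (0.71) in ESC, while Kdr has the most negative NPC estimate (-1.02) and an open point.

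Both NPC calls lay near the threshold and were lost in most fits that left out 1 array. Where that array was from ESC, the change was the same as in the main fit. Only the shared spread, its degrees of freedom and the adjustment then differed. Tie1 passed in 3 of the 12 fits that each left out 1 array (control ESC replicate 1, control ESC replicate 3 or control NPC replicate 1) and missed in the other 9, at adjusted p of 0.0524 to 0.145. Nrp1 passed in 2 (control ESC replicate 1 or control NPC replicate 1) and missed in the other 10, at 0.0537 to 0.131. The change stayed negative in all 12 fits for both, at -1.23 to -0.73 for Tie1 and -0.70 to -0.46 for Nrp1. Fitted on the 6 NPC arrays alone, where the spread of control NPC is not shared with tighter groups, the adjusted p was 0.166 for Tie1 and 0.158 for Nrp1. In that fit 0.0213% of all genes fell and 0.133% rose, against 0.213% and 0.820% in the main fit.

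Control NPC replicate 1 was the lowest of its group in Kdr, Flt1, Flt4, Tie1, Nrp1, Nrp2, Tek and Vegfc. Without it 4 members fell, Kdr (adjusted p = 0.00188) and Flt1 (0.0111) joining Tie1 and Nrp1. The share of all genes that fell also grew, to 0.575% from 0.213% with all arrays. Control NPC replicate 1 was also the lowest of its group in a list of 24 endothelial markers that left the members out. The mean level of that list was 7.09, 7.01 and 6.81 in knockdown NPC and 7.32, 7.68 and 7.90 in control NPC, in the order of replicates 1, 2 and 3. ESC arrays lay at 7.22 to 7.30 in knockdown and 7.06 to 7.24 in control cells.

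Of the 24 endothelial markers, all measured, 0 rose and 6 fell in knockdown NPC (Cd93, Emcn, Cdh5, Rhoj, Adgrl4 and Cldn5), and 15 were lower without overlap. Emcn, an endothelial sialomucin, averaged 6.16 in knockdown NPC and 8.74 in control NPC, and Cdh5, the cadherin of endothelial junctions, 7.09 in knockdown NPC and 9.07 in control NPC. The number that fell ran from 4 to 11 over the fits that left out 1 array, with 11 without control NPC replicate 1. It was 1 on the 6 NPC arrays alone, where 0.0213% of all genes fell. In bulk RNA, fewer cells of a type and less RNA per cell cannot be told apart, and the part of endothelial cells in the receptor values was not tested. Of 11 measured blood markers, 2 embryonic globins fell, Hbb-y by 0.89 ± 0.15 and Hba-x by 0.63 ± 0.13 (SE). With 1 array left out Hbb-y passed in 10 of 12 fits, missing without knockdown NPC replicate 1 (adjusted p = 0.0604) or control NPC replicate 2 (0.0540), and Hba-x in 4 of 12. On the 6 NPC arrays alone neither passed, at 0.103 for Hbb-y and 0.0886 for Hba-x. In knockdown NPC 0 of 10 mural markers passed in either direction and 2 of those 10 had an unadjusted p under 0.05. Pluripotency markers moved the other way, with 4 of 10 rising in knockdown NPC (Utf1, Dppa5a, Esrrb and Tdgf1) and list means of 7.11 to 8.08 in knockdown and 6.36 to 6.93 in control NPC. The number was 2 without knockdown NPC replicate 1, knockdown NPC replicate 2 or control NPC replicate 2, and 6 without knockdown NPC replicate 3. The part of pluripotent cells in the member values was not tested. In knockdown NPC 0 of 10 neural progenitor, 0 of 10 neuronal and 0 of 9 measured mesoderm markers passed with limma, while 1, 2 and 4 of them had an unadjusted p under 0.05. Pecam1 and Vwf, both on the endothelial list, stood higher in ESC than in NPC. For Pecam1, NPC minus ESC was -3.98 in knockdown and -2.43 in control cells. For Vwf it was -1.24 in knockdown and -0.52 in control cells. The part of endothelial cells in their ESC levels was not tested. In knockdown ESC 2 endothelial markers rose, Pecam1 and Vwf, and 0 fell. Neither passed without knockdown ESC replicate 1, knockdown ESC replicate 3 or control ESC replicate 3 (Pecam1 at adjusted p of 0.0566, 0.0826 and 0.101), and Vwf passed in 3 of 12 such fits.

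**Figure D3:**
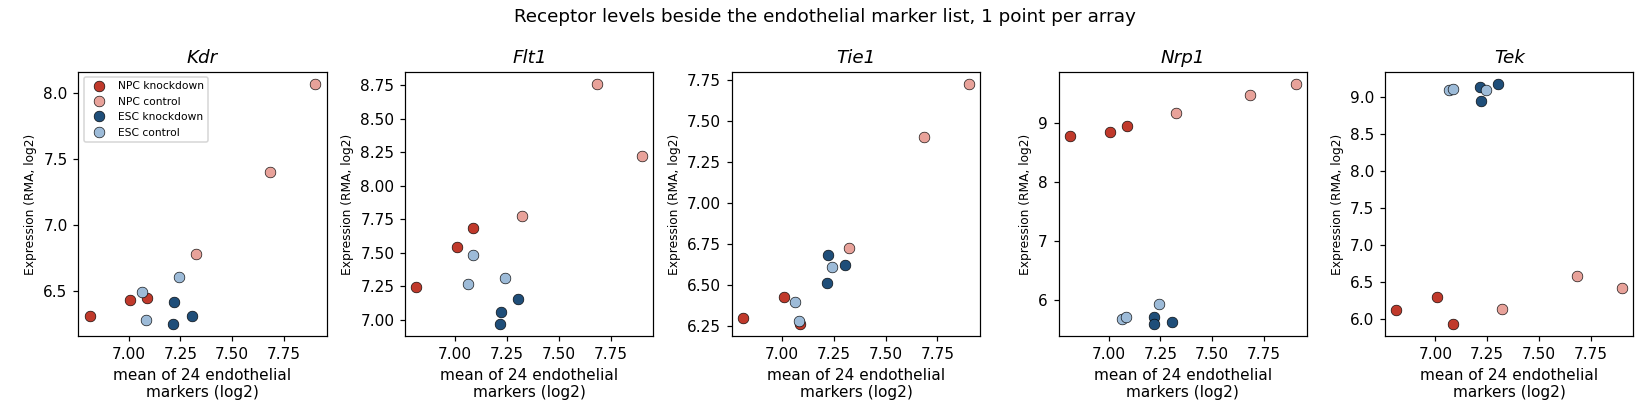
Mean log2 level of 24 endothelial markers, members left out, in each array (horizontal axis) against the level of single members (vertical axis), with 1 point per array and 4 groups. Control NPC replicate 3, at a list mean of 7.90, has the highest Kdr (8.07), Tie1 (7.73) and Nrp1 (9.66) of all arrays. Flt1 is highest in control NPC replicate 2 (8.76, at a list mean of 7.68), against 8.22 in replicate 3. Tek is 6.42 in control NPC replicate 3 and highest in the ESC arrays (8.95 to 9.18).

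The knockdown effect itself was compared between states, as the change in NPC minus that in ESC. None of the 10 members passed with limma, where 1.42% of all genes passed (1.18% with a positive and 0.245% with a negative difference), and 6 had an unadjusted p under 0.05, against 15.3% of all genes. Tie1 came nearest, with a difference of -1.13 ± 0.27 (SE, adjusted p = 0.0594), then Nrp2 at -0.80 ± 0.20 (SE, adjusted p = 0.0748) and Vegfa at -0.58 ± 0.20 (SE, adjusted p = 0.181). So a call in 1 state and not in the other is not shown to be a difference for Vegfa, Nrp1 or Tie1. Leaving out control NPC replicate 1 gave calls for Tie1 (adjusted p = 0.00375) and Kdr (0.0297), and leaving out control ESC replicate 1 gave calls for Tie1 (0.0431) and Nrp2 (0.0397). In these 2 fits 0.335% and 0.804% of all genes passed with a negative difference, more than the 0.245% with all arrays.

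Between states, Nrp1 rose and Tek fell by the most of the 10 members, in both constructs. Nrp1 was 3.21 ± 0.12 (SE) higher in knockdown NPC than knockdown ESC, or 9.24-fold, and 3.65 ± 0.12 (SE) higher in control NPC than control ESC, or 12.5-fold. Its ESC levels lay near or below the lower quartiles of the arrays, so these folds are rough. Tek (Entrez gene 21687), the angiopoietin receptor, had levels of 5.94, 6.30 and 6.12 in knockdown NPC and 8.95, 9.18 and 9.15 in knockdown ESC. In control cells its levels were 6.14, 6.59 and 6.42 in NPC and 9.10, 9.10 and 9.11 in ESC. Tek was thus 7.83-fold lower in knockdown NPC and 6.57-fold lower in control NPC, folds that are rough because its NPC levels lay near the lower quartiles, whereas Tie1 and Kdr were not lower in control NPC than in control ESC. Flt4 also fell, by 0.84 ± 0.20 (SE, adjusted p = 0.0027) in knockdown cells and by 0.55 ± 0.20 (SE, adjusted p = 0.0315) in control cells. The call in control cells missed in 4 of 12 fits that left out 1 array: control ESC replicate 2 (adjusted p = 0.0857), control ESC replicate 3 (0.102), control NPC replicate 1 (0.113) and control NPC replicate 2 (0.0552).

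In knockdown cells 4 members rose and 2 fell between states, where 23.8% of all genes rose and 25.0% fell. In control cells 8 rose and 2 fell, where 23.5% rose and 25.1% fell. The NPC and ESC groups did not overlap for 8 members in knockdown and 10 in control cells, against 62.4% and 52.3% of all genes. All 3 ligands rose in both, Vegfa by 0.71 in knockdown and 1.29 in control cells, Vegfc by 1.41 in knockdown and 1.06 in control cells, and Vegfb by 0.42 in knockdown and 0.37 in control cells. Kdr, Flt1, Nrp2 and Tie1 rose in control cells, by 0.96, 0.90, 0.75 and 0.86, and did not pass in knockdown cells, at 0.070, 0.43, -0.054 and -0.28. The test of that contrast is the difference of the knockdown effects above, in which these 4 did not pass. Flt1 in knockdown cells, at an adjusted p of 0.0840, passed without control NPC replicate 1 (0.0276) or 2 (0.0191). The median change of the members was 0.24 in knockdown and 0.88 in control cells, against -0.068 and -0.042 over all genes.

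**Figure D4:**
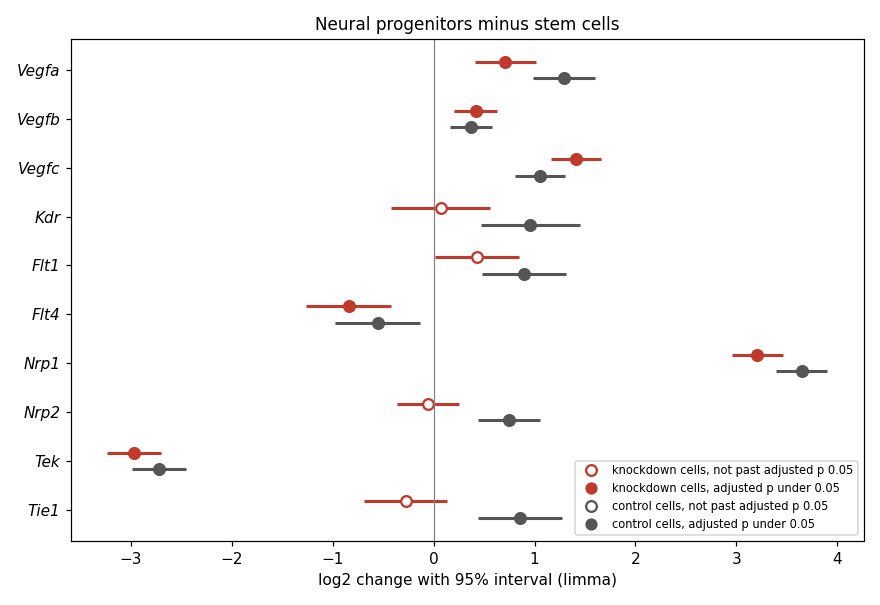
Change between states (NPC minus ESC, log2, horizontal axis) of each member in knockdown and in control cells, with limma's 95% interval as a line and filled points at an adjusted p under 0.05. Nrp1 (3.21 and 3.65) and Tek (-2.97 and -2.72) lie farthest from 0, and Kdr, Flt1, Nrp2 and Tie1 have open points in knockdown cells only.

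The remaining ligands of both systems were read from a list of 50 further VEGF and angiopoietin pathway genes, of which 47 were measured. Angpt1, the activating ligand of Tek, had levels of 5.47, 5.41 and 5.22 in knockdown NPC and 5.46, 5.58 and 6.70 in control NPC. Control NPC replicate 3 stood apart from all other arrays, and the change of -0.55 had an adjusted p of 0.482. In ESC it lay between 4.14 and 4.42. NPC minus ESC was 1.06 in knockdown cells (adjusted p = 0.0023) and 1.62 in control cells (adjusted p = 7.1e-05), but all arrays other than control NPC replicate 3 lay below the lower quartiles, where a level cannot be told from absence. Angpt2, a context-dependent Tek ligand, averaged 6.13 ± 0.20 in knockdown NPC and 6.59 ± 0.40 in control NPC (SD, n = 3 each), again highest in control replicate 3 at 7.01, with a change of -0.46 (adjusted p = 0.327). Vegfd, a ligand of Flt4, fell in NPC against ESC by 0.52 in knockdown and 0.56 in control cells. Pgf, a ligand of Flt1, and Angpt4 passed in none of the 5 contrasts.

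**Figure D5:**
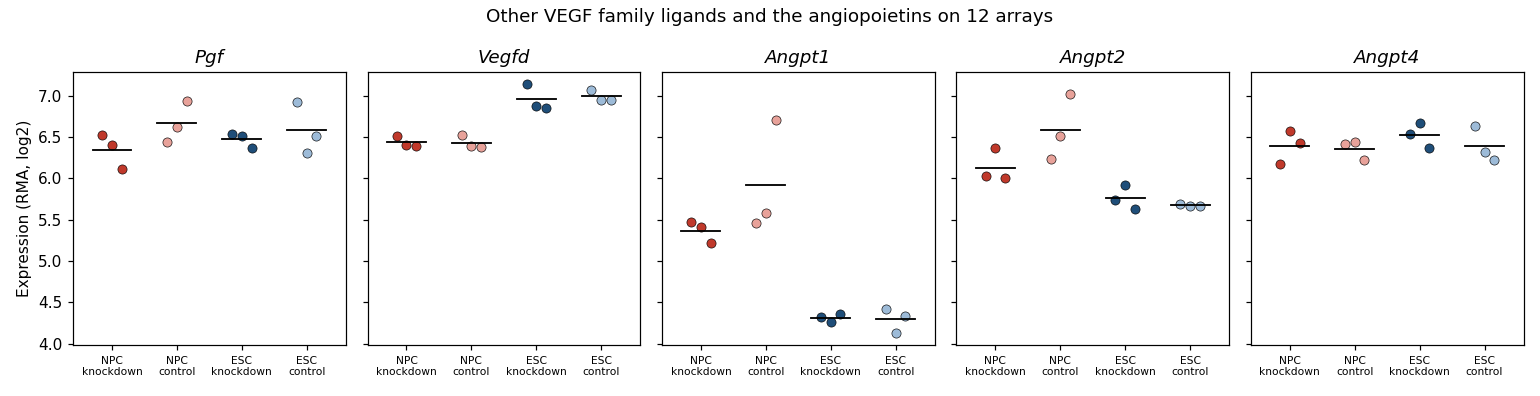
Deposited log2 level (vertical axis) of the ligands Pgf, Vegfd, Angpt1, Angpt2 and Angpt4 in each array, in knockdown and control NPC and knockdown and control ESC, with 3 arrays (points) a group. Angpt1 reaches 6.70 in control NPC replicate 3, with all other arrays at 5.58 or below.

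Across the 47 pathway genes, 0 rose and 1 fell in knockdown ESC, with 5 at an unadjusted p under 0.05. The shares of all genes there were 1.84%, 3.37% and 19.2%. The pathway gene that fell was Nck2, an adaptor that links activated receptors to actin, at 8.35, 8.46 and 8.28 in knockdown ESC and 8.82, 8.90 and 8.85 in control ESC, a change of -0.49 ± 0.081 (SE, adjusted p = 0.0065). None passed with limma in knockdown NPC, where 9 had an unadjusted p under 0.05, or in the difference of the effects, where 6 had. At that p the shares of all genes were 9.52% and 15.3%. Leaving out control NPC replicate 1 gave 2 that fell in knockdown NPC, where 0.575% of all genes fell. Without control ESC replicate 1, 1 passed in the difference and 1 rose in knockdown ESC. In that fit 2.1% of all genes had a positive and 0.804% a negative called difference, and 3.15% rose in knockdown ESC. Without control NPC replicate 3, 2 pathway genes fell in knockdown ESC, where 3.42% of all genes fell. Between states 15 pathway genes rose and 9 fell in knockdown cells, and 18 rose and 9 fell in control cells. Of all genes 23.8% rose and 25.0% fell in knockdown cells, and 23.5% and 25.1% in control cells. The 4 pathway genes with the smallest p were signalling genes downstream of the receptors in both, and all rose: Mapkapk2 (2.14 in knockdown, 2.16 in control cells), Akt1 (1.35 and 1.55), Pik3r1 (1.14 and 1.34) and Nck2 (1.56 and 1.27). The median change of the list was 0.053 in knockdown and 0.11 in control cells.

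The genes most like each member were taken by Pearson's r of log2 levels over the 12 arrays. Since these arrays share 4 groups and mostly divide by state, r describes likeness across groups and carries no p. Kdr was most like Stab1 (0.970), Klhl4 (0.966) and Esam (0.960), and Tie1 was most like Tbx18 (0.978), Gimap6 (0.975) and Stab1 (0.964). For Flt1 the nearest were Ppp1r37 (0.956), Cxcl12 (0.950) and Cdh5 (0.947). Esam and Cdh5 are endothelial junction genes and were on the marker list. Nrp1 was nearest to Rdh10 (0.997), Npr2 (0.997) and Cdh6 (0.996), and Tek to Atp6v0a4 (0.997), Notch4 (0.996) and Bop1 (0.995). Vegfa was most like Stat5b (0.977), Tfcp2 (0.977) and Copz2 (0.974). Vegfb was most like Llgl1 (0.979), Set (0.978) and Mxra8 (0.976). For Vegfc the nearest were Asb13 (0.993), Emc3 (0.989) and Ube2e3 (0.989). Flt4 was nearest to Cd74 (0.957), H2bc4 (0.941) and Tgs1 (0.935). Nrp2 had the lowest values, with Erc2 (0.904), Slc15a2 (0.878) and Stx1a (0.873).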

How the data were processed

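RNA from ESC and NPC was hybridised to Affymetrix mouse gene arrays. The deposited log2 values were made with RMA and affy, and limma was also named, per the submitters' processing notes; for versions and genome build, the sources used here give none. RMA narrows differences near the array's floor. The members and gene lists were chosen with earlier results of these data known.

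Of 21212 probe sets, 18786 had 1 gene symbol, 6 had several and 2420 were not listed. Entrez IDs matched RefSeq for 18775, with 0 symbols changed, and the highest-mean probe set was used per gene. A group-means model was fitted with limma 3.58.1 in R 4.3.3 to all 12 arrays (8 residual and 4.81 prior degrees of freedom), using default lmFit, contrasts.fit and eBayes. Tests were two-sided. The text names all members, Kdm5b, the 5 other ligands, pathway genes that passed in a knockdown contrast, up to 4 per list with the smallest p, and 3 most similar genes per member. Adgrl4, Cldn5 and Plvap were named beyond this rule, after their values were seen.

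Replicate numbers come from the titles. Deviations from group means of same-numbered control NPC and control ESC arrays correlated at 0.266, 0.286 and 0.334, so these may be paired, judged from the data alone. The values reported for that contrast come from the fit without a block. The paired fit was only an alternative. In the other contrasts at least 1 pair was at or under 0.1. Alternative settings tried were array weights, quantile normalization, median centring, a replicate block, an intensity trend with robust prior, a low-value filter, mean of probe sets, adjustment over all rows, only the arrays of the contrast, a threshold of 0.01, and leaving out each array. A block on the 6 control arrays alone was added after seeing the data. On simulated data with 200 of 18784 genes changed by a log2 of 1, the recovered share was 76% for the difference of effects and 93.5% for the NPC knockdown. False calls made up 3.80% to 6.53% of calls over the contrasts. The simulation gave each gene 1 spread in all groups. In control and knockdown NPC the SD was 0.64 and 0.074 for Kdr and 0.51 and 0.086 for Tie1, so these shares cannot be carried over to such genes. The number of arrays limits the precision.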

Additional observations from a re-analysis of the deposited data

Results flagged for a closer look

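None of the 10 members passed the test of a difference in knockdown effect between states. Of Kdm5b and the genes of the marker lists, 10 did, each as the NPC change minus the ESC change, in limma's test over 18784 genes. The difference was 0.96 for Kdm5b (adjusted p = 0.0172), the targeted gene, whose change with knockdown was smaller in NPC. Kdm5b averaged 11.23 in control NPC and 12.41 in control ESC, so its starting level was lower in NPC. In knockdown cells it averaged 10.47 in NPC and 10.68 in ESC, which did not pass between states (limma adjusted p = 0.128). For endothelial markers it was -1.87 for Cd93 (adjusted p = 0.0143), -2.53 for Emcn (0.0397), -2.05 for Cdh5 (0.0370), -1.70 for Rhoj (0.0239), -1.55 for Pecam1 (0.0185) and -0.56 for Plvap (0.0410). Pecam1 stood higher in ESC, with NPC minus ESC of -3.98 in knockdown and -2.43 in control cells. With knockdown it changed by 0.86 in ESC (adjusted p = 0.0187) and by -0.68 in NPC (0.119), so only its rise in ESC passed. The difference was -1.15 for the embryonic globin Hbb-y (0.0239), and for pluripotency markers 1.37 for Utf1 (0.0437) and 2.38 for Dppa5a (0.0443). Some of these genes had group means under 5.84, the smallest lower quartile of any array. Cd93 averaged 5.23 in knockdown ESC and 5.36 in knockdown NPC. Emcn averaged 4.95 in knockdown ESC and 4.99 in control ESC, and Rhoj 5.58 in control ESC. Hbb-y averaged 5.41 in knockdown ESC, 5.15 in control ESC and 5.23 in knockdown NPC. Such means may stand for absence, so the sizes of the differences for Cd93, Emcn, Rhoj and Hbb-y are rough. When each of the 12 arrays was left out in turn, Cd93 passed in 12 fits, Kdm5b in 10, Pecam1 in 9, Rhoj in 7, Hbb-y in 6, Cdh5, Emcn and Utf1 in 3 each, Dppa5a in 2 and Plvap in 1. With the replicate block, 5 missed the threshold: Cdh5 (0.0510), Utf1 (0.0553), Dppa5a (0.0556), Emcn (0.0585) and Plvap (0.0585).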

How the results depend on the processing

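Of 1100 values of members under alternatives, 1027 kept their direction and their side of the threshold, 17 stayed uncalled with the other sign, 35 lost a call, 21 gained one and 0 reversed a called value. In knockdown ESC the number of members that rose was 0 at the threshold of 0.01, where 0.309% of all genes rose, and 0 to 1 leaving out arrays. The number that fell there was 1 with the replicate block and 1 with array weights (Vegfc in both, adjusted p = 0.0242 and 0.0156), and 0 to 1 leaving out arrays. Of all genes 3.33% fell with the block and 9.35% with array weights, against 3.37% in the main fit. In knockdown NPC the number that fell was 0 with the replicate block (Nrp1 0.0727, Tie1 0.0551), 0 on the 6 NPC arrays alone, 0 at 0.01, 1 with array weights (Tie1 lost at 0.0604), and 0 to 4 leaving out arrays. Of all genes, 0.16% fell in knockdown NPC with the block, 0.0213% on the 6 arrays alone, 0.0745% at 0.01 and 0.309% with array weights. Kdr passed there with the filter on low values (0.0456), the trend with robust prior (0.0477) and median centring (0.0430), which gave 3. The shares of all genes that fell in these settings were 0.291%, 0.245% and 0.335%, against 0.213% in the main fit. For the difference of effects, 1 fell with the filter, 1 with the trend and robust prior (Tie1 in both, 0.0478 and 0.0481), 3 with array weights (Vegfa 0.0431, Nrp2 0.0301, Tie1 0.0325), and 0 to 2 leaving out arrays. More genes of the whole array fell there too: 0.474% with the filter, 0.346% with the trend and 1.53% with array weights, against 0.245% in the main fit. Between states in control cells, 1 member fell at 0.01 and 1 to 2 did leaving out arrays. In knockdown cells 4 to 5 rose leaving out arrays, and on the 6 knockdown arrays alone 5 rose and 3 fell (Flt1 0.0131 and Tie1 0.0210 joining). On those 6 arrays 25.7% of all genes rose and 28.2% fell, against 23.8% and 25.0% in the main fit. The block changed no call of a member between states in control cells, 8 rising and 2 falling also on the control arrays alone. Leaving out 1 array assumes the remaining 2 vary like the other groups. Causes were not tested. With 3 arrays a group, small changes of genes near the floor, such as Nrp1 in ESC, cannot be resolved.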
